A study of Mus musculus with 6 samples.

Results

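The genes described here encode the proteins of the cytosolic ribosome. They were taken by name from the rows of the deposited table whose annotation gives a single symbol: Rpl or Rps with a number and at most 1 further letter, Rplp0, Rplp1, Rplp2 and Rpsa. Symbols marked as pseudogenes (-ps) and the kinases that phosphorylate Rps6 were left out, while Rps4l, a transcribed pseudogene in RefSeq, was kept by its name. This gave 58 of 20261 genes, 39 with names of large subunit proteins and 19 with names of small subunit proteins, and 52 of them passed the filter on dim rows and were tested. The samples were primary hepatocytes, isolated by perfusing the livers of 3-month-old C57BL/6 mice, 3 wild type (WT) and 3 with a hepatocyte-specific knockout of the splicing factor SRSF1 (SRSF1HKO), untreated, each on 1 exon array. The labels give neither the Cre line nor the deleted exons, nor a time in culture. They do not say that the samples came from separate animals, so the p-values reflect only how far these samples varied. That variation may be technical, apart from that of knockout replicate 1, described below. With 3 arrays a group, their number sets the precision.

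The cytosolic ribosome joins a small subunit, which reads the mRNA, to a large subunit, which forms the peptide bond. Its proteins are made in nearly equal amounts, and most of their mRNAs begin with a terminal oligopyrimidine (TOP) tract, a C followed by further C and T (U in the RNA) at the very start, through which mTOR signalling and the protein LARP1 set their translation as a class. In hepatocytes, which export large amounts of plasma protein, these mRNAs are among the abundant ones. The genes also have many processed pseudogenes, copies without introns whose sequence is close to that of the mRNA. SRSF1, the protein deleted here, is an SR protein that takes part in splice site choice. Setting SRSF1HKO against WT asks whether signal at these genes differs in hepatocytes labelled as lacking it.

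Array scales differed. Over all 238609 rows, the median intensity as deposited ran from 25.6 to 39.8 in wild type and from 18.6 to 28.8 in the knockout. The median tested gene therefore differed by -0.44 log2 units between the groups on the deposited scale and by -0.0053 after quantile normalization, which gives all arrays the same distribution. Differences below are knockout minus wild type on the scale log2(intensity + 16) after quantile normalization, given ± the standard error of limma's fit to 3 arrays a group. Intensities are printed as deposited. Rose and fell are used only of genes below 0.05 by limma's p, adjusted by Benjamini and Hochberg, both after quantile normalization and on the deposited scale, in the same direction. Since the median gene lay at -0.44 on the deposited scale, this rule is harder to pass upward than downward. After quantile normalization alone 2.73% of all genes passed higher and 1.41% lower, but on both scales 0.842% and 1.4%. Srsf1 itself read 666, 667 and 607 (WT) against 242, 371 and 386 (SRSF1HKO), and its difference passed on the deposited scale (adjusted p = 0.01) but not after quantile normalization (adjusted p = 0.185). Whether its row holds probes outside the deleted part is not given, so it is a weak check of the deletion. Knockout replicate 1 stood apart: its Xist signal was 9.95 against 2122 to 3532 on the other arrays, its signal of the Y-linked Eif2s3y was 129.6 against 2.27 to 7.78, and over all tested genes it correlated with the other knockout arrays at 0.942 and 0.947 while those correlated at 0.985 with each other (Pearson's r across genes). Low Xist with Y-linked signal is the pattern of a male sample, and the other arrays had the reverse. Knockout replicate 1 thus came from another animal than the others, and sex was mixed in the knockout group only. Results are therefore also given without this array.

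No ribosomal protein gene rose or fell. In limma's test 0 of 52 were higher and 0 lower by the rule of both scales, where 0.842% of all 19123 genes were called higher and 1.4% lower, 2.24% in all. None passed after quantile normalization alone (4.14% of all genes) or on the deposited scale alone (7.79% of all genes, 0.931% higher and 6.86% lower). The smallest adjusted p was 0.103 for Rpl41 after quantile normalization and 0.0543 for Rpl6 on the deposited scale. At an unadjusted p under 0.05 stood 1 gene after quantile normalization, beside 15.3% of all genes, and 6 on the deposited scale, beside 30%. Leaving out knockout replicate 1 gave 1 call, Rpl34, described below.

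The differences were small as well as uncalled. They ran from -0.42 for Rpl6 to 0.49 for Rpl41, with a median of 0.051, 32 above 0 and 20 below. The median over all tested genes was -0.0053, and the interquartile range of the differences was 0.28 log2 units for the ribosomal protein genes and 0.28 for all genes. No ribosomal protein gene differed by more than 0.5 log2 units in either direction, beside 8.42% of all genes. The 95% interval of the difference lay within 1 log2 unit of 0, a change of 2-fold, for 52 of 52 of them and for 93% of all genes. The widest reach was that of Rpl6 (-0.97 to 0.13) and of Rpl3l (-0.24 to 0.94). These intervals hold on the scale log2(intensity + 16), which understates the change of dim genes. In whole-cell RNA, fewer cells of a type and less RNA per cell cannot be told apart. The plot of all differences shows their order and intervals.

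**Figure D1:**
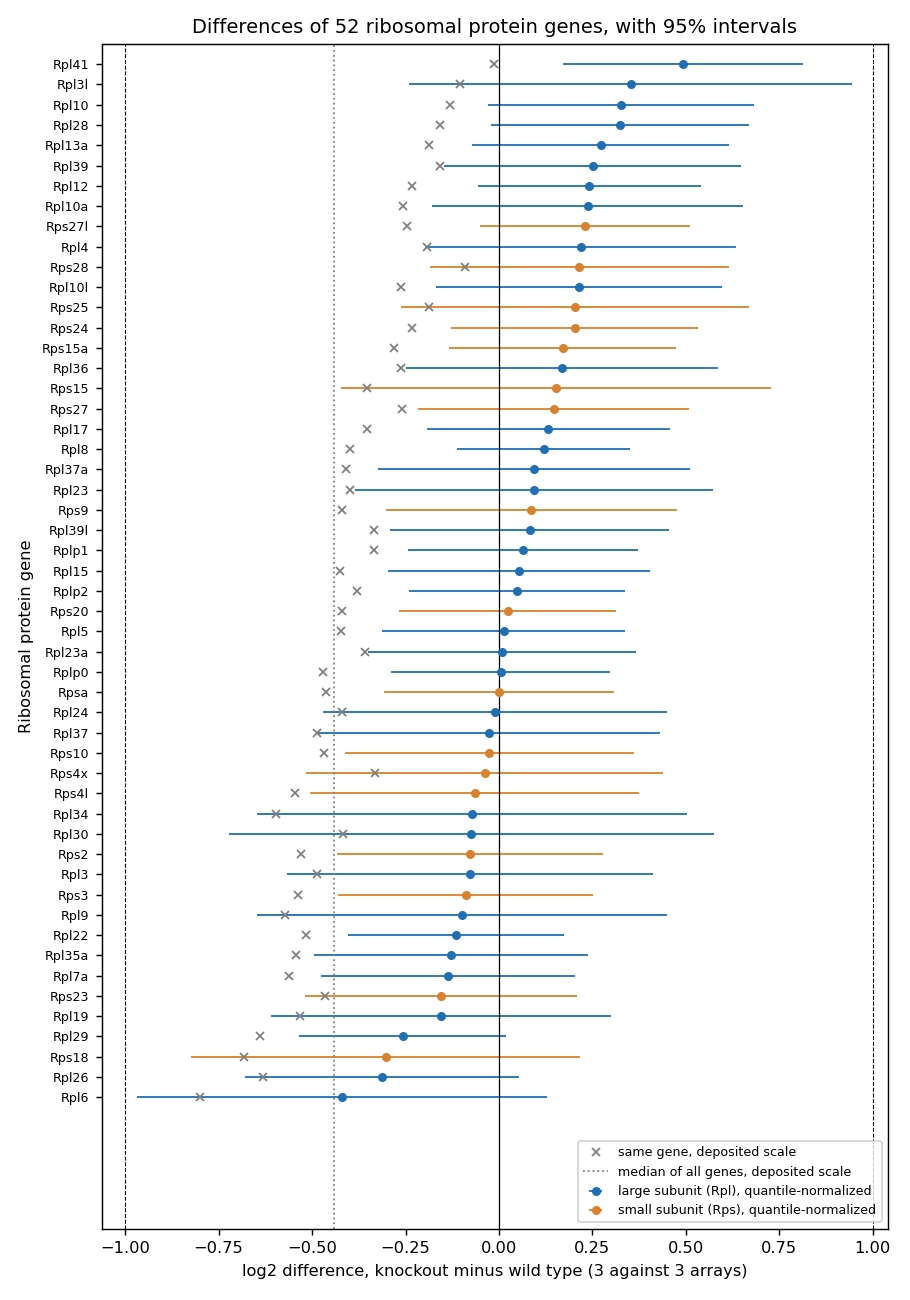
Log2 differences (knockout minus wild type, 3 against 3 arrays, horizontal axis) of the 52 tested ribosomal protein genes (vertical axis), with 95% intervals after quantile normalization (blue large subunit, orange small subunit); grey crosses are the same genes on the deposited scale and the dotted line is the median of all genes there (-0.44). All intervals lie between the dashed lines at 1 log2 unit either side of 0, and that of Rpl41 alone does not cover 0.

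The medians of large and small subunit genes lay close together. The 35 tested genes of the large subunit had a median of 0.054 with 22 above 0, and the 17 of the small subunit a median of 0.024 with 10 above 0. The range of the small subunit genes was -0.30 for Rps18 to 0.23 for Rps27l, narrower than that of the larger group. On the deposited scale all 52 differences were below 0, with a median of -0.40 beside -0.44 for all genes. The highest deposited intensity fell in a wild type array for 51 genes, in replicate 2 for 36 and in replicate 1 for 15. The lowest fell in a knockout array for 48, in knockout replicate 2 for 26. Wild type replicate 2 and knockout replicate 2 also had the highest and the lowest median over all rows.

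After quantile normalization, the median level of the ribosomal protein genes was 6.82, 6.78 and 6.70 log2 units on the WT arrays and 7.04, 6.71 and 6.78 on the SRSF1HKO arrays. Knockout replicate 1 thus had the highest level, and the other knockout arrays lay within the wild type range. Without it the median difference was 0.018, and differences ran from -0.41 to 0.44. Knockout and wild type ranges were apart for 5 of 52 genes after quantile normalization, 4 of them higher in the knockout, where 21.7% of all genes had groups that did not overlap. On the deposited scale they did not overlap for 12 genes, all lower in the knockout, beside 28% of all genes in that direction and 29.7% in either.

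**Figure D2:**
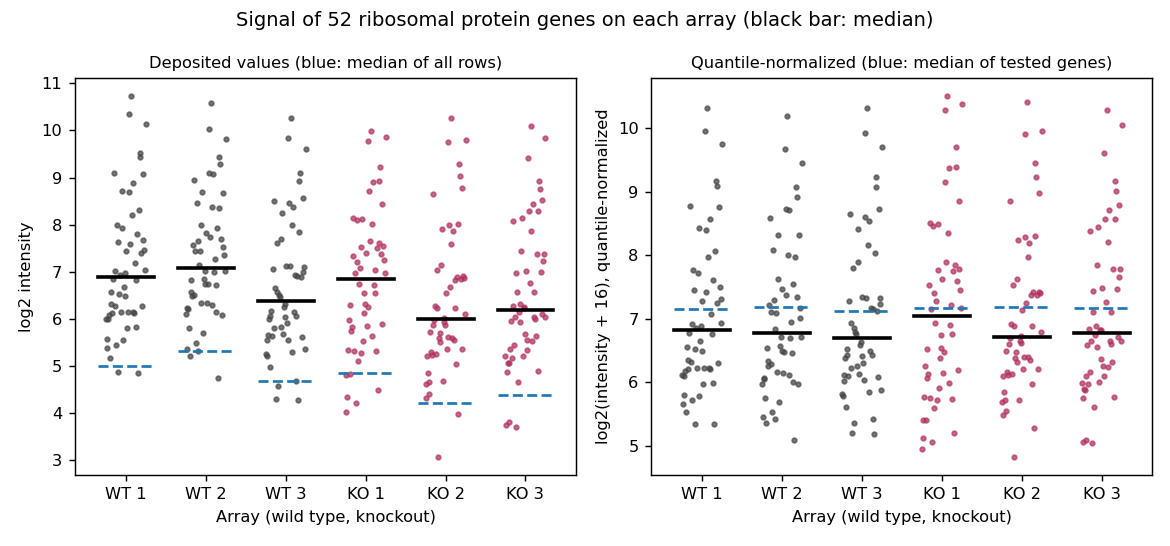
Signal of the 52 tested ribosomal protein genes on each of the 6 arrays (points; grey wild type, red knockout; black bars the median), as log2 of the deposited intensity (left, blue dashes the median of all rows) and as log2(intensity + 16) after quantile normalization (right, blue dashes the median of all tested genes). On the left the genes follow each array's scale, and on the right their medians lie between 6.70 and 7.04.

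The brightest rows belonged to Rpl8, Rps9, Rpl41 and Rps27l. Rpl8, a large subunit protein near the peptidyl transferase centre, read 1689, 1523 and 1228 (WT) against 1018, 1226 and 1095 (SRSF1HKO). All knockout arrays were below all wild type arrays on this scale, yet after quantile normalization the groups overlapped and the difference was 0.12 ± 0.10 (adjusted p = 0.707), with a 95% interval of -0.11 to 0.35. Its standard error was the smallest of the group. Rps9, a small subunit protein needed early in assembly, read 1297, 1051 and 914 (WT) against 876, 862 and 679 (SRSF1HKO). The groups again overlapped after quantile normalization, and the difference was 0.087 ± 0.17 (adjusted p = 0.908), or -0.092 ± 0.12 without knockout replicate 1.

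Rpl41, the smallest protein of the ribosome, had the largest difference upward. It read 1126, 903 and 778 (WT) against 933, 896 and 921 (SRSF1HKO). The knockout values lay inside the wild type range on the deposited scale, and all of them above it after quantile normalization. The difference was 0.49 ± 0.14 with an interval of 0.17 to 0.81 (adjusted p = 0.103). On the deposited scale it was -0.013, above the median of all genes but not above 0. For Rpl41 alone, after quantile normalization, the two-sided exact permutation p was 0.1, and 3 arrays against 3 can give none smaller. Without knockout replicate 1 the difference was 0.37 ± 0.10 and passed after quantile normalization (adjusted p = 0.0338) but not on the deposited scale (adjusted p = 0.938).

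The other large differences upward were those of Rpl3l, Rpl10, Rpl28, Rpl13a and Rpl39. Rpl10, a protein that joins the large subunit late in its assembly, read 177, 164 and 138 (WT) against 153, 117 and 166 (SRSF1HKO). The deposited values overlapped, while after quantile normalization all knockout arrays were higher, by 0.33 ± 0.16 (adjusted p = 0.386). Rpl13a, known also for a role outside the ribosome in silencing inflammatory mRNAs, read 540.5, 411 and 381 (WT) against 348, 439 and 369 (SRSF1HKO). Its groups parted after quantile normalization only, with a difference of 0.27 ± 0.15 (adjusted p = 0.484). Rpl28 read 206, 184 and 127 (WT) against 188, 119.8 and 149 (SRSF1HKO), with overlap on both scales and a difference of 0.32 ± 0.15 (adjusted p = 0.369). Rpl39, which lines the exit tunnel for the nascent chain, read 77.05, 68.3 and 49.2 (WT) against 59.9, 41.05 and 68.996 (SRSF1HKO). Its difference was 0.25 ± 0.18 (adjusted p = 0.617), with overlap on both scales. Some of these rest on 1 array: Rpl3l was at 0.038 without wild type replicate 3, Rpl13a at 0.13 without wild type replicate 2, and without knockout replicate 3 Rpl39 was at 0.083 and Rpl10 at 0.21.

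The largest differences downward were at dim rows. Rpl6, a large subunit protein, read 64.2, 68.4 and 38.5 (WT) against 16.3, 24.7 and 37.1 (SRSF1HKO). All knockout arrays were below wild type on the deposited scale, but only just for replicate 3, and the groups overlapped after quantile normalization. The difference of -0.42 ± 0.24 (adjusted p = 0.504) was -0.13 ± 0.16 without knockout replicate 1. Rps18, on the head of the small subunit, read 47.6, 75.1 and 46.8 (WT) against 20.4, 37.2 and 29.4 (SRSF1HKO). Its difference of -0.30 ± 0.23 (adjusted p = 0.658) was -0.037 ± 0.16 without knockout replicate 1, so both of these rest in large part on that array. Rpl26, which also binds the mRNA of p53, read 41.5, 41.1 and 36.95 (WT) against 28.1, 19.9 and 13.5 (SRSF1HKO) and had a difference of -0.31 ± 0.16 (adjusted p = 0.436). Rpl29 read 63.6, 73.9 and 50.9 (WT) against 40.7, 28.98 and 33.5 (SRSF1HKO), without overlap on either scale, and had a difference of -0.26 ± 0.12 (adjusted p = 0.378). Of these 4 genes only Rpl29 had groups apart after quantile normalization. Rps23, part of the decoding centre, read 36.2, 36.9 and 31.5 (WT) against 28.3, 21.3 and 14.001 (SRSF1HKO), with -0.16 ± 0.16 (adjusted p = 0.774). Rpl19, at a bridge between the subunits, read 68.3, 56.01 and 64.4 (WT) against 62.997, 25.5 and 33.3 (SRSF1HKO), with -0.16 ± 0.20 (adjusted p = 0.836). Without knockout replicate 3 Rpl26 was at -0.19 and Rps23 at -0.028, and Rpl19 was at -0.016 without wild type replicate 3. Rpl6, Rps18, Rpl26, Rpl29 and Rps23 also have a brighter row shared only with pseudogenes or gene models, a kind of row described below. In the brightest such row the differences were 0.089 ± 0.16, -0.097 ± 0.17, -0.087 ± 0.18, -0.030 ± 0.18 and 0.24 ± 0.19, in that order. Another shared row of Rps23 had -0.51 ± 0.20.

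Genes chosen for their place in the ribosome, after their values were seen, had no larger differences. The stalk that recruits elongation factors is built of Rplp0, Rplp1 and Rplp2. Rplp0 read 422, 413 and 306 (WT) against 279.9, 242 and 282 (SRSF1HKO), all knockout arrays below wild type on the deposited scale, and its difference after quantile normalization was 0.0043 ± 0.13. Rplp1 and Rplp2 had 0.065 ± 0.14 and 0.048 ± 0.13, so none of the stalk proteins was far from 0. Rpsa, the small subunit protein also known as a laminin receptor, read 245, 255 and 208 (WT) against 186, 142 and 174 (SRSF1HKO) and had 0.00071 ± 0.14. Rps3 and Rps2, at the site where mRNA enters the small subunit, had -0.089 ± 0.15 and -0.077 ± 0.16. Rpl5, which carries the 5S rRNA with Rpl11 and can bind the p53 regulator Mdm2, had 0.012 ± 0.14. Rpl4 and Rpl17, which with Rpl39 shape the exit tunnel, had 0.22 ± 0.18 and 0.13 ± 0.14.

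Without knockout replicate 1, Rpl34 fell. This large subunit protein read 254, 351 and 195 (WT) against 274, 131 and 125 (SRSF1HKO), the knockout value of replicate 1 inside the wild type range and the others below it. With 6 arrays its difference was -0.073 ± 0.25 (adjusted p = 0.956). Without that array it was -0.41 ± 0.13 and passed after quantile normalization (adjusted p = 0.0497) and on the deposited scale (adjusted p = 0.0267), 1 of 52 genes beside 5.28% of all genes called lower and 6.24% called in either direction in that comparison. Rpl4 passed after quantile normalization only, in the other direction (0.44 ± 0.11, adjusted p = 0.0243, and 0.949 on the deposited scale). It read 318, 327 and 231 (WT) against 194, 259 and 311 (SRSF1HKO). With Rpl41 this made 3 of 52 genes past the threshold after quantile normalization, beside 15.1% of all genes (5.39% lower). With 6 arrays, a dimmer Rpl34 row shared with a pseudogene had 0.19 ± 0.17, and a brighter row shared with Pcgf3 had 0.10 ± 0.14. These shared rows were not fitted without knockout replicate 1.

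With 6 arrays, differences ran with signal among the ribosomal protein genes. Across the 52 genes, the difference correlated with the mean level at Pearson's r = 0.48 and Spearman's rho = 0.49, a description over genes that share the same 6 arrays. The 26 brighter genes had a median difference of 0.11, with 20 above 0, and the 26 dimmer ones a median of -0.019, with 12 above 0. Over all tested genes the medians above and below the same level were -0.0074 and -0.0013. Whether the relation holds without knockout replicate 1 was not computed. In that comparison brighter genes lay on both sides of 0, with Rps15 at -0.16, Rpl34 at -0.41, Rpl10 at 0.39 and Rpl4 at 0.44. Of the dimmer genes, Rpl6 and Rps18 were nearer 0 than with 6 arrays, at -0.13 and -0.037, and Rpl19 further from it, at -0.31. Levels in the 2 genotypes correlated at r = 0.992 across these genes.

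**Figure D3:**
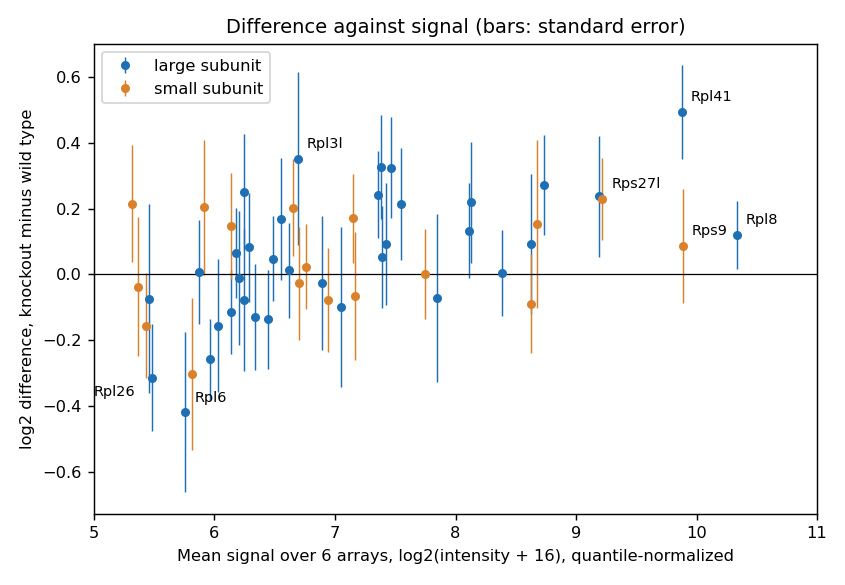
Log2 difference (knockout minus wild type, vertical axis, bars the standard error) of each tested ribosomal protein gene against its mean level over 6 arrays (horizontal axis, log2(intensity + 16)), both after quantile normalization; blue is the large and orange the small subunit. Genes with a difference below -0.2 all have a level under 6.73, the median of the group.

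A feature that the choice by name did not use is the sequence at the transcription start. Start-site windows were taken from the RefSeq promoter table (GRCm38.p6, another build than the mm9 named for the arrays), where 47 of the 58 genes were matched by symbol. A C followed by at least 4 further C or T, on the strand of the gene and with its first base within 5 bases of a listed start, was found for 22 of 47 genes (46.8%), beside 21.2% of all 27025 genes in the table and 17 of 69 mitochondrial ribosomal protein genes. Exactly at a listed start it began in 10 (21.3%), beside 3.01% of all genes. A start listed a few bases away from the one cells use hides such a tract, so no match says only that these letters are not in this window. The windows below run from 30 bases before to 20 bases after the listed start, with capitals from the qualifying C nearest the listed start to the end of its run of C and T, and are shown for genes named above because the tract is what this class of mRNAs is known for.

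Rpl28 (chr7:4792935-4792984, plus strand): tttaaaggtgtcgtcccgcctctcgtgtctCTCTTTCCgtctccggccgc
Rps18 (chr17:33955646-33955695, minus strand): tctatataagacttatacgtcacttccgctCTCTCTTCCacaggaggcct
Rps27 (chr3:90213629-90213678, minus strand): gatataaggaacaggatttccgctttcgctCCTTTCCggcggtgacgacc
Rps9 (chr7:3704011-3704060, plus strand): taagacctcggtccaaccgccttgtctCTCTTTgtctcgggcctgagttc
Rpl13a (chr7:45128726-45128775, minus strand): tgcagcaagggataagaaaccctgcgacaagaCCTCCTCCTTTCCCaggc
Rpl41 (chr10:128549149-128549198, minus strand): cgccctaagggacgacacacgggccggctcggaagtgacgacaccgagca
Rpl10 (chrX:74270786-74270835, plus strand): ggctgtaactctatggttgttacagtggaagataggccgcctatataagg
Rpl6 (chr5:121204471-121204520, plus strand): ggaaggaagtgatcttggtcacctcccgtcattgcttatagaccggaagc

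In Rpl28, Rps18 and Rps27 the qualifying C nearest the listed start is the start itself, in Rps9 it lies 3 bases before, and in Rpl13a it is the base numbered 3. The run of C and T reaches further upstream than the capitals in Rpl28, Rps18, Rps27 and Rps9. Rpl41, Rpl10 and Rpl6 have no such C within 5 bases of the start, and the window of Rpl6 holds such a run further upstream. The ranges of genes with and without the tract overlapped widely: the 19 tested genes that hold it had a median of 0.054 (-0.30 to 0.32), and the 23 without it a median of 0.082 (-0.42 to 0.49). Rpl28 and Rps18, both with a qualifying C at the start, lay on opposite sides of 0.

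Several genes of the group are paralogs of another member, some known for expression in 1 tissue. Rpl3l replaces Rpl3, which shapes the peptidyl transferase centre, in heart and skeletal muscle. The Rpl3l row read 132, 130.1 and 41.1 (WT) against 127, 68.9 and 65.8 (SRSF1HKO), with a difference of 0.35 ± 0.26. The Rpl3 row read 78.02, 91.6 and 56.01 (WT) against 40.1, 63.3 and 43.4 (SRSF1HKO), with -0.077 ± 0.22. A brighter Rpl3 row, shared with a pseudogene, had 0.45 ± 0.17 (limma's adjusted p = 0.539), so this contrast depends on the row. Rpl10l, a retrogene known from testis, read 223, 243 and 121 (WT) against 183, 119 and 166 (SRSF1HKO) and had 0.21 ± 0.17, near the value of Rpl10. The pair Rps27 and Rps27l are both broadly expressed, the second also as a target of p53. Rps27l read 735, 697 and 489.7 (WT) against 489, 626 and 486 (SRSF1HKO) and had 0.23 ± 0.12, and Rps27 read 71.1, 78.7 and 39.4 (WT) against 50.1, 48.7 and 46.2 (SRSF1HKO) and had 0.15 ± 0.16. Both pairs of groups overlapped after quantile normalization. Rpl39l read 71.4, 107 and 46.97 (WT) against 75.8, 48.9 and 40.8 (SRSF1HKO) and had 0.082 ± 0.17, beside 0.25 ± 0.18 for Rpl39. Rps4l, which RefSeq lists as a transcribed pseudogene, read 198, 202 and 94.8 (WT) against 148, 75.02 and 95.3 (SRSF1HKO) and had -0.065 ± 0.19, beside -0.038 ± 0.21 for the X-linked Rps4x. None of these passed the test (adjusted p from 0.386 for Rpl10 to 0.973 for Rps4x). Signal at a row also depends on its probes, so it does not show which paralog is the more abundant, and signal at Rpl3l and Rpl10l may come from close copies, which was not tested.

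The rows of this group were not bright for mRNAs known to be abundant. Over the tested genes the mean intensity ran from 23.9 for Rps28 to 1297 for Rpl8, with a median of 94.4, and after quantile normalization their median was below that of all tested genes on all 6 arrays. The dimmest tested rows were those of Rps28, Rps4x, Rps23 and Rpl30, each under the array median on at least 1 array. Rps28 read 28.9, 27.05 and 19.3 (WT) against 22.6, 15.9 and 29.9 (SRSF1HKO), with a difference of 0.22 ± 0.18, and Rps4x read 29.2, 40.004 and 23.97 (WT) against 34.3, 8.43 and 25.4 (SRSF1HKO). Rpl30 read 43.9, 45.1 and 19.7 (WT) against 18.7, 38.4 and 13.1 (SRSF1HKO) and had the largest standard error of the group (-0.074 ± 0.29). A further 6 genes, Rpl7, Rpl31, Rpl32l, Rpl35, Rps7 and Rps12, were below the filter and not tested. The brightest of them, Rpl35, a protein at the tunnel exit, read 18.97, 29.97 and 17.1 (WT) against 16.7, 10.9 and 19.3 (SRSF1HKO), and its groups overlapped. Rps7 read 19.4, 17.3 and 6.74 (WT) against 26.7, 1.76 and 10.8 (SRSF1HKO), Rps12 read 18.96, 19.8 and 14.5 (WT) against 21.9, 11.03 and 10.1 (SRSF1HKO), and Rpl31 read 5.15, 4.46 and 5.16 (WT) against 7.82, 11.2 and 7.63 (SRSF1HKO). Rpl7 read 13.9, 18.2 and 13.3 (WT) against 10.3, 6.31 and 6.25 (SRSF1HKO), and Rpl32l read 0.0170, 4.34 and 2.23 (WT) against 0.493, 1.36 and 1.70 (SRSF1HKO). All knockout values of Rpl31 were above and all of Rpl7 below wild type, and neither was tested in the main comparison. In the alternative without a filter, which tested all 58 genes, 0 were called higher and 0 lower.

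Many ribosomal protein rows carry more than 1 symbol. Besides the 103 rows with 1 symbol, 71 rows name a ribosomal protein gene together with pseudogenes or gene models only. These name 35 genes, 13 of which have no row of their own, among them Rps6, the target of S6 kinases, Rps19 and Rpl11. For 16 of the 22 genes with both kinds of row the shared one was brighter, as for Rps2, whose own row read 129, 175 and 101 (WT) against 126, 77.1 and 65.5 (SRSF1HKO) while a row shared with a pseudogene read 1647, 1364 and 1066 (WT) against 1101, 1000.0 and 754 (SRSF1HKO). In a fit over all 143165 rows past the filter, added after seeing the data, 0 of 57 such rows passed on both scales or on the quantile-normalized scale alone (beside 0.204% and 0.3% of all rows), and 3 had an unadjusted p under 0.05, beside 7.99% of all rows. Their median difference was 0.050, with a range of -0.60 to 0.45. The brightest Rps6 row read 181, 209 and 129.7 (WT) against 151, 107 and 91.6 (SRSF1HKO), a difference of -0.047 ± 0.16, and the Rps19 row 106, 143 and 89.6 (WT) against 109, 58.6 and 58.3 (SRSF1HKO), a difference of -0.081 ± 0.17. A further 26 rows name a ribosomal protein gene together with another gene, and of the 25 tested 0 passed on both scales and 1 after quantile normalization alone. That row names Rpl32l and Cth, an enzyme of cysteine synthesis, and read 2804, 2380.3 and 2017 (WT) against 2366, 3772 and 3528 (SRSF1HKO), a difference of 0.90 ± 0.10 (adjusted p = 0.00479, and 0.261 on the deposited scale). Signal of the paired genes cannot be told apart there. All 77 tested rows with 1 symbol, further rows of the same genes included, also stayed below the threshold on either rule (-0.42 to 0.49). The array cannot separate an mRNA from copies of the same sequence.

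The proteins of the mitochondrial ribosome, the class most like this one by function, had a median close to theirs with 6 arrays. Of 75 tested Mrpl and Mrps genes 0 were called higher and 0 lower. In limma's quantile-normalized fit 7 had an unadjusted p under 0.05, beside 15.3% of all genes. The median difference was 0.057, beside 0.051 for the cytosolic proteins. Without knockout replicate 1 the medians were 0.18 and 0.018. In that comparison 13 of 75 mitochondrial and 2 of 52 cytosolic genes passed upward after quantile normalization, beside 9.72% of all genes. The difference between the classes was not tested.

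Of the listed genes that make or regulate ribosomes, 1 was called with 6 arrays: Myc, the transcription factor that drives ribosome production, rose. Myc read 76.1, 69.7 and 52.7 (WT) against 266, 188 and 118 (SRSF1HKO), which gave 1.76 ± 0.24 (adjusted p = 0.00456, quantile-normalized), and 1.54 ± 0.17 without knockout replicate 1. All 3 knockout arrays were above all wild type arrays. It was 1 of 17 tested regulators of TOP mRNAs and TOR signalling to be called, with 0 lower. Over all genes 0.842% were called higher and 1.4% lower with 6 arrays. The median of the 17 regulators was 0.051. Larp1, the protein that binds the TOP tract, had 0.36 ± 0.094 (adjusted p = 0.0743) and Tsc1, an inhibitor of mTOR signalling, -0.47 ± 0.12 (adjusted p = 0.066), both named after their values were seen. Without knockout replicate 1, Tsc1 (-0.47 ± 0.10) and Eif4ebp2, a repressor of cap-dependent translation (-0.46 ± 0.081), fell. They were 2 of 17, beside 5.28% of all genes called lower in that comparison.

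By the rule of both scales, which is harder to pass upward, the lists of nucleolar factors held no called gene. Most of their differences were above 0 after quantile normalization. On the deposited scale the medians were below 0, at -0.063 for nucleolar modification, -0.22 for small and -0.33 for large subunit assembly and -0.26 for RNA polymerase I transcription, beside -0.44 for all genes. Of 10 genes that modify rRNA or build the nucleolus 10 were above 0, with a median of 0.39. Gar1, Nhp2 and Nop10, proteins of the particle that makes pseudouridine, passed after quantile normalization alone (0.89 ± 0.15, 0.82 ± 0.15 and 0.50 ± 0.089), beside 2.73% of all genes. The deposited values of Gar1 were 170.0, 178 and 101 (WT) against 189, 204 and 224 (SRSF1HKO), all knockout arrays above wild type.

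Of 36 factors of small subunit assembly 29 were above 0, with a median of 0.21. Nop58, a core protein of the particles that methylate rRNA, read 117, 134 and 81.2 (WT) against 145, 203 and 230.0 (SRSF1HKO). All knockout arrays were above wild type, and its difference was 1.12 ± 0.21 (adjusted p = 0.0178 after quantile normalization and 0.0977 on the deposited scale). Of 26 factors of large subunit assembly 18 were above 0, with a median of 0.10, and Rrp1b (0.59 ± 0.12) passed after quantile normalization alone. So did Grwd1, the dedicated chaperone of Rpl3 (0.73 ± 0.15), among 5 chaperones. The 10 genes of RNA polymerase I transcription had a median of 0.17. Without knockout replicate 1, Nop58 rose (1.41 ± 0.12) and Rcl1, of the same list, fell (-0.38 ± 0.10). Over all 19127 genes of that comparison 183 were called higher and 5.28% lower. After quantile normalization alone, 8 of 10 nucleolar and 19 of 36 small subunit assembly genes then passed upward, beside 9.72% of all genes.

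The mRNAs that share the TOP tract without coding for ribosomal proteins, and the translation elongation factors, had medians near that of the ribosomal proteins. None of 10 elongation and release factors or 16 further TOP mRNAs was called, and their medians were 0.030 and 0.060. The lists share several elongation factors. Naca, a chaperone of nascent chains, had -0.46 ± 0.16 with 6 arrays (adjusted p = 0.198) and fell without knockout replicate 1 (-0.61 ± 0.14). Of 9 host genes of small nucleolar RNAs 0 were called with 6 arrays (median 0.11), and Snhg7 fell without knockout replicate 1 (-0.54 ± 0.16). Naca and Snhg7 were thus 1 of 16 and 1 of 9, beside 5.28% of all genes called lower in that comparison. Of the ribosomal protein genes with other names 3 were tested and 0 called, with a median of 0.054.

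Macrophage and stellate cell markers lay mostly above 0 after quantile normalization, while 7 of 10 endothelial markers lay below 0. Of 12 macrophage markers 11 were above 0, with a median of 0.50, and Cd68 rose (1.81 ± 0.35), beside 0.842% of all genes called higher. Of 11 stellate cell and matrix genes 11 were above 0, with a median of 0.36 and none called with 6 arrays. Without knockout replicate 1, the matrix genes Dcn (1.30 ± 0.15) and Lum (1.78 ± 0.17) rose, and Pck1, the hepatocyte enzyme of gluconeogenesis, fell (-0.25 ± 0.070). These were 2 of 11 and 1 of 9 genes, where 183 of all 19127 genes were called higher and 5.28% lower. On the deposited scale the macrophage and stellate medians were 0.057 and -0.045. Their summed deposited intensities overlapped between the groups, at 825 to 1961 in wild type and 1364 to 1797 in the knockout for macrophage markers and 1791 to 2857 in wild type and 2152 to 3161 in the knockout for stellate cell genes, and no marker of either list lay below the array median on all arrays. The 9 tested hepatocyte markers summed to 64462 to 70919 in wild type and 40931 to 59310.5 in the knockout, so these sums did not overlap. After quantile normalization 7 of the 9 were below 0, with a median difference of -0.016. In limma's test 1 passed there (adjusted p = 0.00444), beside 4.14% of all genes. On the deposited scale 0 passed, and the median was -0.35 beside -0.44 for all genes. Endothelial, cholangiocyte, lymphocyte, neutrophil and erythroid markers had medians of -0.074, 0.050, 0.043, 0.021 and -0.15, with none called. The part of other cell types in the values of Myc, the nucleolar factors and the ribosomal proteins was not tested.

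**Figure D4:**
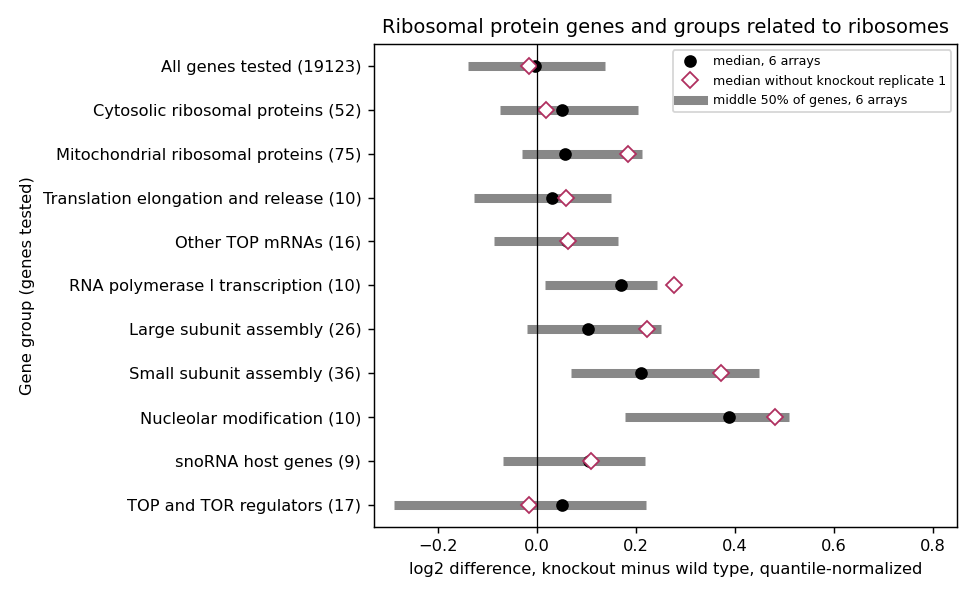
Median log2 difference (knockout minus wild type after quantile normalization, horizontal axis) of the ribosomal protein genes and related groups (vertical axis, genes tested in parentheses), with 6 arrays (black points, grey bars the interquartile range) and without knockout replicate 1 (open diamonds). The cytosolic ribosomal proteins lie at 0.051 and 0.018, and the nucleolar modification genes at 0.39 and 0.48.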

How the data were processed

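Per the submitters' processing notes, the deposited intensity values were made with PLIER and genome build mm9. The sources used here do not give its version, its background step or how arrays were scaled. No column was left unused. Of 238609 rows, 24343 carry 1 gene symbol in the platform annotation, 1797 several, and the others are unnamed here. Values were taken as log2(intensity + 16), and rows under the 40th percentile of mean value were left out. The brightest row stood for each gene. limma 3.58.1 (R 4.3.3, lmFit and eBayes with an intensity trend, Benjamini-Hochberg over 19123 genes) was run after quantile normalization and on the deposited scale, and checked on simulated data. Intervals are limma's at 95%.

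The members and lists were chosen with earlier results of these data known. Genes named were those of largest difference, brightest, dimmest and paralogous; up to 4 called per list; and others, named for their role or for passing 1 scale or 5 arrays, after their values were seen. Alternatives were scale, pseudocounts of 1 and 64, other filters, the median of a gene's rows, other variance models and leaving out each array.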

Additional observations from a re-analysis of the deposited data

How the results depend on the processing

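The count of ribosomal protein genes called higher stayed at 0 under all alternatives run, and the count called lower ran from 0 to 1 over the comparisons that leave out 1 array (Rpl34 without knockout replicate 1) and was 0 under the others. The median difference ran from 0.018 to 0.10 with 1 array left out. It was -0.40 on the deposited scale, where the median of all genes was -0.44, and -0.083 with arrays shifted to a common median, where that of all genes was -0.12. On the deposited scale these named genes turned below 0: -0.13 for Rpl10, -0.26 for Rpl10l, -0.19 for Rpl13a, -0.16 for Rpl28, -0.16 for Rpl39, -0.34 for Rpl39l, -0.10 for Rpl3l, -0.013 for Rpl41, -0.40 for Rpl8, -0.26 for Rps27, -0.24 for Rps27l, -0.091 for Rps28 and -0.42 for Rps9. With a common median so did -0.014 for Rpl39l, -0.077 for Rpl8 and -0.10 for Rps9. Leaving out 1 array moved a difference across 0 for genes near it, with ranges of -0.33 to 0.15 for Rpl3, -0.45 to 0.11 for Rpl30, -0.026 to 0.20 for Rpl39l, -0.24 to 0.061 for Rps4l, -0.17 to 0.22 for Rps4x and -0.092 to 0.25 for Rps9. With 1 array left out, 0.075 to 0.32 for Rpl10l, 0.037 to 0.26 for Rps27 and 0.042 to 0.32 for Rps28 were the ranges of further genes that kept their sign but moved by over 1.5 times. Some named genes passed 0.5 log2 units after quantile normalization under another setting. With a pseudocount of 1, Rpl6 was at -0.64 and Rpl41 at 0.501. With 1 array left out, Rpl6 reached -0.65, Rps18 -0.53, Rpl41 0.58 and Rpl3l 0.56. None of these was called under any of these settings. No paired analysis was possible because the labels give no replicate numbers shared between the groups. Array signal limits the dim rows most: the filter at the 60th percentile left 47 ribosomal protein genes, so the dimmest named ones have no value under it, and no filter kept 58.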
